A study of Mus musculus with 10 samples.

Results

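The 26 genes described here encode the enzymes that make cholesterol in the liver and the proteins that set how much of those enzymes is made. They were selected by gene symbol as mevalonate and sterol pathway enzymes, SREBP2 processing genes and a sterol carrier, and comprise 19 enzymes (8 from acetyl-CoA to the isoprenoids, 11 from squalene to cholesterol), 6 SREBP2 control genes and the carrier gene Stard4. All 26 were found among the 55421 gene identifiers of the count table, and all 26 were among the 22449 genes that passed a minimum of 10 counts summed over the livers.

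The measurements came from poly(A) RNA of whole livers of 10 male mice, all given an AAV8 vector by retro-orbital injection at 6 months of age and analysed 3 weeks later. The H3.3 KO group comprised 4 H3f3a fl/fl, H3f3b fl/fl C57BL/6 mice that received AAV8 Tbg-Cre, in which Cre is expressed from the hepatocyte promoter Tbg. A first control group (WT Cre) comprised 3 wildtype mice given the same virus, and a second (MCS) comprised 3 mice with the same floxed alleles given AAV8 Tbg-MCS, so the first shares the Cre virus with the KO mice and the second shares their floxed alleles. Endothelial, Kupffer, stellate and other non-hepatocyte cells are not targets of the Tbg promoter and contribute to every library. H3.3 is a histone H3 variant encoded by both H3f3a and H3f3b. As a check of the group labels, H3f3a fell to 28.1% and H3f3b to 31.6% of their control levels, with every KO liver below every control liver.

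Cholesterol is built from acetyl-CoA. Mevalonate is converted into isoprenoids, farnesyl units are joined into squalene, and squalene is cyclised and trimmed into cholesterol in the endoplasmic reticulum. The transcription factor SREBP2, encoded by Srebf2, turns on most of these enzyme genes. When sterols are scarce, Scap escorts SREBP2 to the Golgi, where the proteases encoded by Mbtps1 and Mbtps2 release its active part. When sterols are abundant, the Insig proteins hold Scap back in the endoplasmic reticulum. The liver is a major site of this synthesis, and hepatocytes carry out most of it.

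SREBP2 acts on promoters through sterol regulatory elements, usually together with the factors NF-Y and Sp1. Promoter sequences (250 bases before to 50 after each annotated start) were taken from RefSeq, GRCm38.p6, for 22 of the 26 genes. Both strands were searched for the sterol regulatory element letters TCACNCCAC, for a shorter form CACNCCAC that lies within the longer one, for the NF-Y box CCAAT, for the Sp1 box GGGCGG and for the E-box CACGTG. The following promoters are shown because they belong to genes whose transcripts fell in KO livers (Tm7sf2, Acat2, Insig2) or did not pass the test (Hmgcs1, Insig1). Each line gives the 250 bases before the start, 5′ to 3′ on the gene's strand, and capitals mark the sterol regulatory element letters in either form, the NF-Y box and the E-box, read on either strand.
Tm7sf2, minus strand, chr19:6067851-6068100: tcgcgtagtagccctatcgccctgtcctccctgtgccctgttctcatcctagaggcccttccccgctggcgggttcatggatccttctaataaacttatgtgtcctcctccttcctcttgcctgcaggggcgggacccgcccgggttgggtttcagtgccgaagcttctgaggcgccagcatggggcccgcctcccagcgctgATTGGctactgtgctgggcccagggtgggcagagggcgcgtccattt
Acat2, minus strand, chr17:12960726-12960975: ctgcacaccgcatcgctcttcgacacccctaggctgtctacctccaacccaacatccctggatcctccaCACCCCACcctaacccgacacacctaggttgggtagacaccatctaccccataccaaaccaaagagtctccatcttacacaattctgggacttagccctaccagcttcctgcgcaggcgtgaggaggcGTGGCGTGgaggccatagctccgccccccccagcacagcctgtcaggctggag
Insig2, minus strand, chr1:121332590-121332839: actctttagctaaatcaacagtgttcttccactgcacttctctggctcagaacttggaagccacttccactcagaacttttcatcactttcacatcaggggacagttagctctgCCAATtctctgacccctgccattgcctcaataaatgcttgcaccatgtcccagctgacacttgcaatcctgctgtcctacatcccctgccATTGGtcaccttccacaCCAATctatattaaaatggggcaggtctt
Hmgcs1, plus strand, chr13:119690101-119690350: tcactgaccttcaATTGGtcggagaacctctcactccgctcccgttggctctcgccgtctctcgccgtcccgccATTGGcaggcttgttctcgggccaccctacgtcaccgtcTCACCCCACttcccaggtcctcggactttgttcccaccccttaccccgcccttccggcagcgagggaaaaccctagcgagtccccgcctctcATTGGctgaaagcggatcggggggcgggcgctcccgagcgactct
Insig1, plus strand, chr5:28071162-28071411: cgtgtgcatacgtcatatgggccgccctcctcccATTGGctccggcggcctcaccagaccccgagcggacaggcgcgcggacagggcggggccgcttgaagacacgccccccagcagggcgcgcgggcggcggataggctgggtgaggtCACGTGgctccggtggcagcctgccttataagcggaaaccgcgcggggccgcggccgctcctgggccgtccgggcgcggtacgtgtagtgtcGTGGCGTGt
Some genes have several annotated starts, and a gene was counted as holding a motif where any of its windows did, among the members and among all genes alike. Insig2 has 3 such windows. The one shown lies directly before the annotated start of the gene and holds NF-Y boxes but no Sp1 box, while the other two hold an Sp1 box each but no NF-Y box. The full sterol regulatory element letters were present in 1 of the 22 promoters, that of Hmgcs1, as TCACCCCAC starting at position -137, and in 1.44% of the promoters of all 27025 genes. The shorter form was present in 3 of 22 (Acat2, Hmgcs1 and Insig1), against 7.12% of all genes. NF-Y boxes were present in 18 of 22 members (81.8%), against 41.1% of all genes, and Sp1 boxes in 19 of 22 (86.4%), against 38.2%. E-box letters were present in 5 of 22 (22.7%), against 8.09% of all genes. Among the 10 of these genes whose transcripts fell, 8 held an NF-Y box, as did 10 of the 12 that did not pass the test. The counts describe letters in these windows and not the binding of a factor.

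In the KO livers, 13 of the 26 genes were lower than in the 6 controls and none was higher by edgeR's quasi-likelihood test at an adjusted p under 0.05. Over all genes tested, 16.6% were lower and 19.7% were higher in the same comparison, so the members called lower made up a larger share than in the whole table and the members called higher a smaller one. By DESeq2 and by voom the counts of members were also 13 lower and 0 higher, and at an unadjusted p under 0.05 only Dhcr7 was higher by edgeR. The split between directions moved with the scaling. With library size in place of TMM, 11 members were lower and 1, Dhcr7, was higher, while 2172 of all genes were lower and 5635 higher in place of 3726 and 4429, and the median over all genes moved to 0.17 (log2). On log2(FPKM + 1), 10 members were lower and 3 higher (Ggps1, Dhcr7 and Srebf2), beside 2059 lower and 4738 higher of all genes. The genes that fell were Acat2, Idi1, Fdps, Sqle, Cyp51, Tm7sf2, Nsdhl, Hsd17b7, Ebp, Sc5d, Scap, Insig2 and Stard4. Of these, 7 also fell more than 2-fold (an absolute log2 fold change above 1), compared with 5.79% of all genes that fell and 12.9% that rose by this rule. The median log2 fold change of the 26 genes was -0.43, beside -0.0030 for all genes, and 20 of the 26 had a value below 0. The highest KO liver was below the lowest control in 8 genes, a pattern held by 12.0% of all genes, and the lowest KO liver was above the highest control in 1 gene, Dhcr7, a pattern held by 12.5% of all genes.

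**Figure D1:**
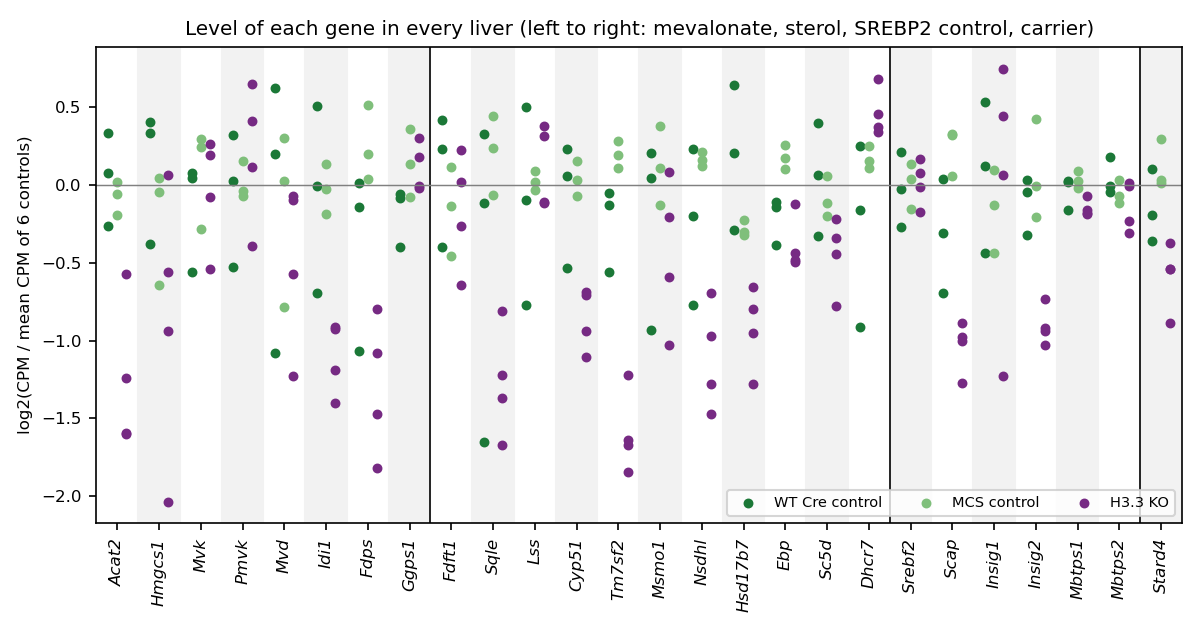
Level of each of the 26 genes in each liver as log2(CPM / mean CPM of the 6 controls), where CPM is a TMM-scaled count share; each point is 1 mouse, and vertical lines separate the mevalonate, sterol, SREBP2 control and carrier genes. KO points lie below all controls for Acat2, Idi1, Cyp51, Tm7sf2, Hsd17b7, Scap, Insig2 and Stard4, and above all controls for Dhcr7.

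Hepatocyte markers were lower in KO livers as well. Of 10 hepatocyte marker genes, 7 were lower and none higher in KO livers, with a median log2 fold change of -0.65. The count depended on the control, with 2 of 10 lower against WT Cre (median -0.38) and 8 of 10 against MCS (median -0.81), and none of the 10 passed between WT Cre and MCS. Their summed level, in counts scaled by TMM library size (CPM), was 107900 to 119500 CPM in WT Cre, 129700 to 152500 CPM in MCS and 82870 to 97890 CPM in KO livers. Alb alone made up most of this sum, with a mean of 96920 CPM in controls and 69200 CPM in KO livers. Apob and Cps1 had log2 fold changes above 0 (0.24 and 0.22) and did not pass. Hepatocyte transcripts were abundant in every KO liver. All 10 Kupffer cell and macrophage markers were higher, from 254 to 473 CPM in controls to 585 to 1249 CPM in KO livers. Stellate cell and fibroblast markers were higher in 9 of 10, from 221 to 282 CPM in controls to 505 to 811 CPM. Lymphoid markers were higher in 6 of 10, but their sums were low, at 4.81 to 7.29 CPM in controls and 7.17 to 26.3 CPM in KO livers. KO 1, at 7.17 CPM, lay within the control range. Cycling markers were higher in 9 of 10. Endothelial markers were higher in 2 of 10. Among cholangiocyte markers, 9 of 10 could be tested, with 2 higher and 1 lower. Beside these counts, 19.7% of all genes were higher and 16.6% lower. The counts of higher endothelial and cholangiocyte markers were near the share of all genes. The part of the marker shifts in the results below was not tested, and in whole-liver RNA fewer hepatocytes and less RNA per hepatocyte cannot be told apart.

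To examine whether the choice of control mattered, KO livers were compared with each kind of control separately. Against WT Cre, 11 of the 26 genes were lower, beside 13.1% of all genes, and 1, Dhcr7, was higher, beside 15.3% of all genes. Against MCS, 12 were lower, beside 14.8% of all genes, and none was higher, beside 17.3% of all genes. Against MCS, 0 members were higher at an unadjusted p under 0.05 by edgeR, and 0 by DESeq2 or voom after adjustment. These comparisons share the KO livers, so they are not independent of each other. Acat2, Idi1, Fdps, Cyp51, Tm7sf2, Nsdhl, Hsd17b7, Scap, Insig2 and Stard4 were lower against both kinds of control. Sc5d was lower and Dhcr7 higher against WT Cre, Sqle and Ebp were lower against MCS, and the other 12 genes passed against neither.

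The difference between the KO effects against each kind of control equals the difference between WT Cre and MCS livers, and no member passed that test, nor by DESeq2 or voom. At an unadjusted p under 0.05, 4 members differed by edgeR, with Hsd17b7 higher and Scap, Tm7sf2 and Ebp lower in WT Cre livers. The share of all genes at that unadjusted threshold is not given here, so this count cannot be set against it. At an adjusted p under 0.05, 0.441% of all genes were higher and 0.486% lower in WT Cre than in MCS livers, and no member passed. Calls made against one kind of control and missed against the other are therefore not shown to differ between the controls.

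**Figure D2:**
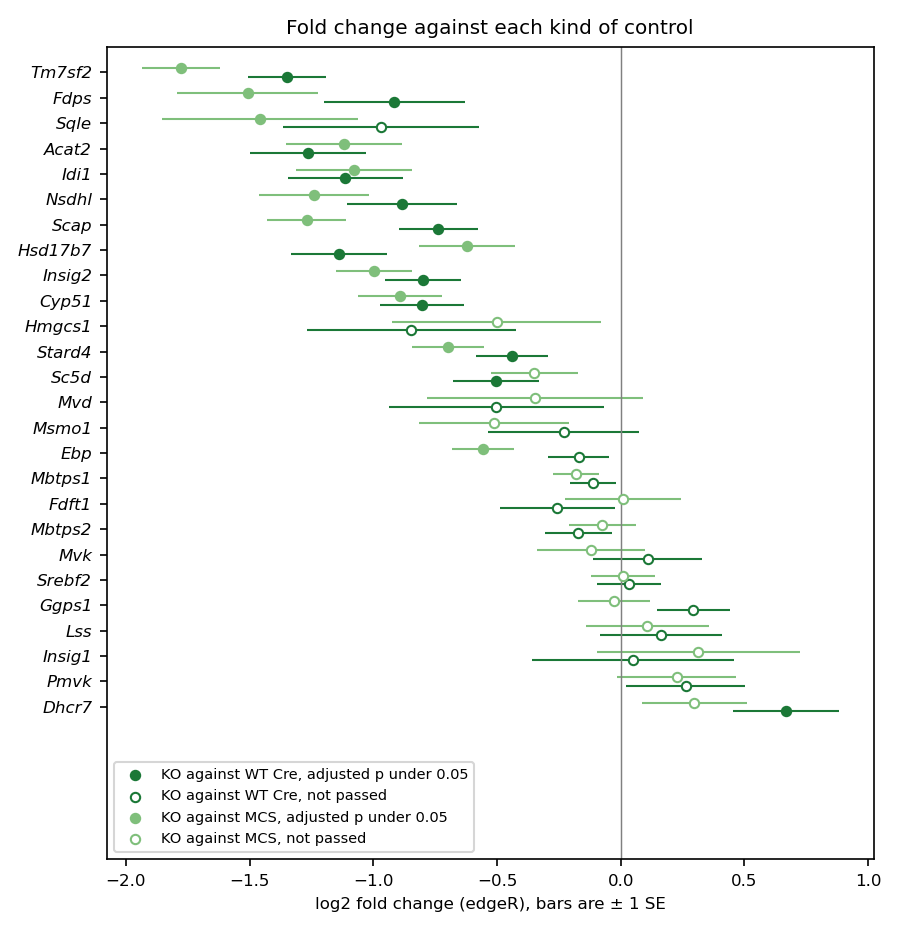
log2 fold change (edgeR) of each gene in KO livers against the WT Cre controls (dark green) and the MCS controls (light green), with bars of 1 SE; filled points passed at an adjusted p under 0.05. Tm7sf2 is lowest against MCS at -1.78, and Dhcr7 is highest against WT Cre at 0.67.

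The mevalonate steps came first in the pathway and fell in 3 of 8 genes. Acat2, which joins acetyl-CoA units at the entry to the pathway, measured 118, 98.6 and 77.8 CPM in the WT Cre livers, 89.6, 94.5 and 81.6 CPM in the MCS livers and 62.6, 30.9, 39.4 and 30.8 CPM in the KO livers. The highest KO liver was below the lowest control. The log2 fold change was -1.19 (SE 0.20, adjusted p = 0.000698). Acat2 lies on chr17:12942890-12960747 (gene coordinates here and below are of GRCm38) beside its near-identical neighbour Acat3, with which it can exchange reads, and Acat3 had a mean of 145 ± 9.63 CPM in controls (SD, n = 6) and 76.6 CPM in KO livers.

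Hmgcs1, which makes HMG-CoA and whose promoter is the one with the full sterol regulatory element letters, gave 469, 492 and 285 CPM in WT Cre, 359, 383 and 238 CPM in MCS and 388, 194, 251 and 90.5 CPM in KO livers. The KO livers spanned a wide range, with KO 1 among the controls and KO 4 far below them. Its log2 fold change of -0.68 (SE 0.36, adjusted p = 0.163) did not pass. Without KO 1 it passed, with a log2 fold change of -1.05 and an adjusted p of 0.0363, so its call rested on that liver. The next enzymes, the mevalonate kinase Mvk, the phosphomevalonate kinase Pmvk and the decarboxylase Mvd, did not pass the test. Mvk ranged from 12.2 to 22.2 CPM in controls and from 12.4 to 21.7 CPM in KO livers. Pmvk ranged from 39.2 to 70.7 CPM in controls and from 43.1 to 88.8 CPM in KO livers. Mvd ranged from 12.9 to 42.0 CPM in controls and from 11.6 to 25.9 CPM in KO livers. In all 3 genes the KO livers overlapped the controls, and log2 fold changes were -0.01 (SE 0.19) for Mvk, 0.24 (SE 0.19) for Pmvk and -0.43 (SE 0.36) for Mvd. These values depended on single livers, and with 1 liver left out Pmvk ran from 0.08 (without KO 1) to 0.42 (without KO 2) and Mvd from -0.56 to -0.23 (without KO 4).

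Idi1, on chr13:8885501-8892451, interconverts the isoprenoid building blocks. Its levels were 62.6, 43.6 and 27.1 CPM in WT Cre, 38.7, 48.3 and 43.1 CPM in MCS and 23.1, 19.3, 23.3 and 16.6 CPM in KO livers. KO livers were tightly grouped and all below the controls, and the log2 fold change was -1.09 (SE 0.20, adjusted p = 0.00103). Fdps builds farnesyl diphosphate, the last intermediate before squalene. It measured 156, 141 and 74.1 CPM in WT Cre, 159, 222 and 178 CPM in MCS and 89.4, 43.9, 73.3 and 55.9 CPM in KO livers. WT Cre 3 was the one control that fell within the KO range, and the log2 fold change over all controls was -1.24 (SE 0.29, adjusted p = 0.00619). Against WT Cre alone Fdps gave -0.92 (SE 0.28, adjusted p = 0.0357), a call that was lost without WT Cre 1 (adjusted p = 0.132), WT Cre 2 (0.113), KO 2 (0.0653), KO 3 (0.0573) or KO 4 (0.0896), without the filter on low counts (0.0999) and on log2(FPKM + 1) (0.0684). Fdps also shares exonic sequence on its own strand with the annotated gene Gm43738. Ggps1, which extends farnesyl into geranylgeranyl diphosphate for protein prenylation and so leaves the sterol route, ranged from 8.24 to 13.9 CPM in controls and from 10.7 to 13.4 CPM in KO livers. Its log2 fold change of 0.12 (SE 0.14, adjusted p = 0.528) did not pass, whereas on log2(FPKM + 1) it passed as higher (adjusted p = 0.0287).

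The sterol steps fell in 7 of 11 genes. Fdft1, which joins farnesyl units into squalene, ranged from 109.6 to 201 CPM in controls and from 96.2 to 176 CPM in KO livers. The groups overlapped and the log2 fold change was -0.13 (SE 0.20, adjusted p = 0.656). Fdft1 overlaps Ctsb on the opposite strand, and Ctsb had a mean of 717 CPM in controls and 1361 CPM in KO livers. The strand setting of the counting is not given in the sources used here. Hmgcs1, Idi1, Ggps1, Lss, Scap and the targeted H3f3a also share exonic sequence with annotated genes on the opposite strand. Mbtps2 does so with Yy2 on its own strand. The part of these overlaps in the counts was not tested.

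Sqle, the squalene epoxidase and a rate-limiting step of the sterol part, showed 119, 87.4 and 30.1 CPM in WT Cre, 90.7, 129 and 112 CPM in MCS and 36.5, 40.6, 53.9 and 29.7 CPM in KO livers. WT Cre 3 had a level as low as the lowest KO livers, while the other 5 controls were above every KO liver. Over all controls the log2 fold change was -1.23 (SE 0.36, adjusted p = 0.0224). This call was lost without KO 1 (adjusted p = 0.0601) or without KO 4 (adjusted p = 0.0689), without the filter on low counts (0.0530) and on log2(FPKM + 1) (0.0567). Against MCS it was -1.46 (SE 0.40, adjusted p = 0.022), and this call was lost without MCS 2 (adjusted p = 0.0672), MCS 3 (0.0503), KO 1 (0.0574) or KO 4 (0.0625), and without the filter on low counts (0.0583). Against WT Cre Sqle did not pass, with -0.97 (SE 0.40, adjusted p = 0.101). Lss, which cyclises the epoxide into lanosterol, ranged from 37.6 to 91.0 CPM in controls and from 59.1 to 83.3 CPM in KO livers, with a log2 fold change of 0.13 (SE 0.20, adjusted p = 0.639).

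Cyp51, the lanosterol demethylase, on chr5:4081145-4104746, measured 230.5, 204 and 136 CPM in WT Cre, 187, 219 and 201 CPM in MCS and 122, 91.2, 120.3 and 102 CPM in KO livers. All KO livers were below all controls, and the log2 fold change was -0.85 (SE 0.15, adjusted p = 0.000706). Its neighbour Akap9 on the other strand, with which it overlaps, was far less abundant, at 26.7 CPM in controls and 20.3 CPM in KO livers. Tm7sf2, a sterol reductase that acts right after Cyp51, had the largest decrease of the 26 genes. It measured 170.0, 161 and 119.6 CPM in WT Cre, 190.2, 202 and 214 CPM in MCS and 75.4, 56.4, 55.3 and 48.9 CPM in KO livers. The gap between the groups was wide, with the highest KO liver at 75.4 CPM and the lowest control at 119.6 CPM. Its log2 fold change was -1.58 (SE 0.17, adjusted p = 2.51e-05), or 33.5% of the control mean. Tm7sf2 lies on chr19:6062821-6068373 and overlaps Vps51 on the same strand, and Vps51 ranged from 13.1 to 16.9 CPM in controls and from 13.0 to 16.2 CPM in KO livers.

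The demethylation that follows is carried out by Msmo1, Nsdhl and Hsd17b7. Msmo1, the methylsterol monooxygenase, ranged from 76.5 to 189.5 CPM in controls and from 71.4 to 154 CPM in KO livers, and its log2 fold change of -0.38 (SE 0.26, adjusted p = 0.281) did not pass. Its partners fell. Nsdhl, the sterol dehydrogenase, gave 123, 91.3 and 61.4 CPM in WT Cre, 117, 122 and 114 CPM in MCS and 64.7, 43.1, 53.5 and 37.8 CPM in KO livers. The KO liver with the highest level, KO 1, was just above WT Cre 3 and below the other controls. Its log2 fold change was -1.07 (SE 0.21, adjusted p = 0.0017). Against WT Cre alone this was -0.89 (SE 0.22, adjusted p = 0.0122), lost without WT Cre 1 (adjusted p = 0.0602). Hsd17b7, the keto-sterol reductase, measured 118, 87.1 and 61.7 CPM in WT Cre, 61.3, 64.5 and 60.4 CPM in MCS and 43.5, 39.0, 47.9 and 31.0 CPM in KO livers. Every KO liver was below every control, and the log2 fold change was -0.90 (SE 0.21, adjusted p = 0.00506). Against MCS it was -0.62 (SE 0.19, adjusted p = 0.0288), a call lost without any one of the 3 MCS livers (adjusted p from 0.0606 to 0.0878), without KO 2 (0.0639) or without KO 4 (0.0593). The call was also lost with library size in place of TMM (0.139) and on log2(FPKM + 1) (0.209).

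Ebp, Sc5d and Dhcr7 act near the end of the pathway. Ebp, the sterol isomerase, measured 271, 265 and 224 CPM in WT Cre, 314, 329.8 and 349.7 CPM in MCS and 268, 216, 207 and 209 CPM in KO livers. The KO livers overlapped the WT Cre livers and lay below the MCS livers. Over all controls the log2 fold change was -0.38 (SE 0.14, adjusted p = 0.0464), against MCS -0.56 (SE 0.12, adjusted p = 0.00491), and against WT Cre -0.17 (SE 0.12, adjusted p = 0.338). The call against MCS was lost on log2(FPKM + 1) (0.112). Sc5d, the sterol desaturase, was the most abundant enzyme transcript per length, and measured 969, 771 and 586 CPM in WT Cre, 679, 768 and 643 CPM in MCS and 633, 542, 583 and 429.8 CPM in KO livers. KO 1 overlapped the controls and the other 3 KO livers were below all of them, with a log2 fold change of -0.43 (SE 0.15, adjusted p = 0.044). The calls of Ebp and Sc5d over all controls were near the threshold. That of Ebp was lost when any one of 8 livers was left out (all except WT Cre 3 and KO 1; adjusted p up to 0.139), and that of Sc5d when any one of 7 was left out (WT Cre 1 and 2, MCS 1 and 2, KO 2, 3 and 4; adjusted p up to 0.128). With library size in place of TMM the log2 fold changes were -0.19 for Ebp (adjusted p = 0.195) and -0.26 for Sc5d (0.213), and neither passed, nor with DESeq2's size factors (0.0640 and 0.0554) or on log2(FPKM + 1) (0.242 and 0.190). Against WT Cre, where Sc5d gave -0.50 (SE 0.17, adjusted p = 0.0475), it was lost without any one liver except WT Cre 3 and KO 1 (adjusted p up to 0.241).

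Dhcr7, the reductase of the last step to cholesterol, on chr7:143823145-143848410, had a log2 fold change above 0. Its levels were 177, 133 and 78.8 CPM in WT Cre, 160.2, 177 and 165 CPM in MCS and 192, 188, 239 and 204 CPM in KO livers. Every KO liver was above every control, although the lowest KO liver exceeded the highest control by a small margin. Over all controls the log2 fold change of 0.47 (SE 0.19, adjusted p = 0.0702) did not pass, and without WT Cre 3, the lowest control, it passed at 0.35 with an adjusted p of 0.0368. Against WT Cre alone it was 0.67 (SE 0.21, adjusted p = 0.0355), a call lost without WT Cre 2, WT Cre 3, KO 1, KO 3 or KO 4 (adjusted p from 0.0519 to 0.0889), and against MCS 0.30 (SE 0.21, adjusted p = 0.314).

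**Figure D3:**
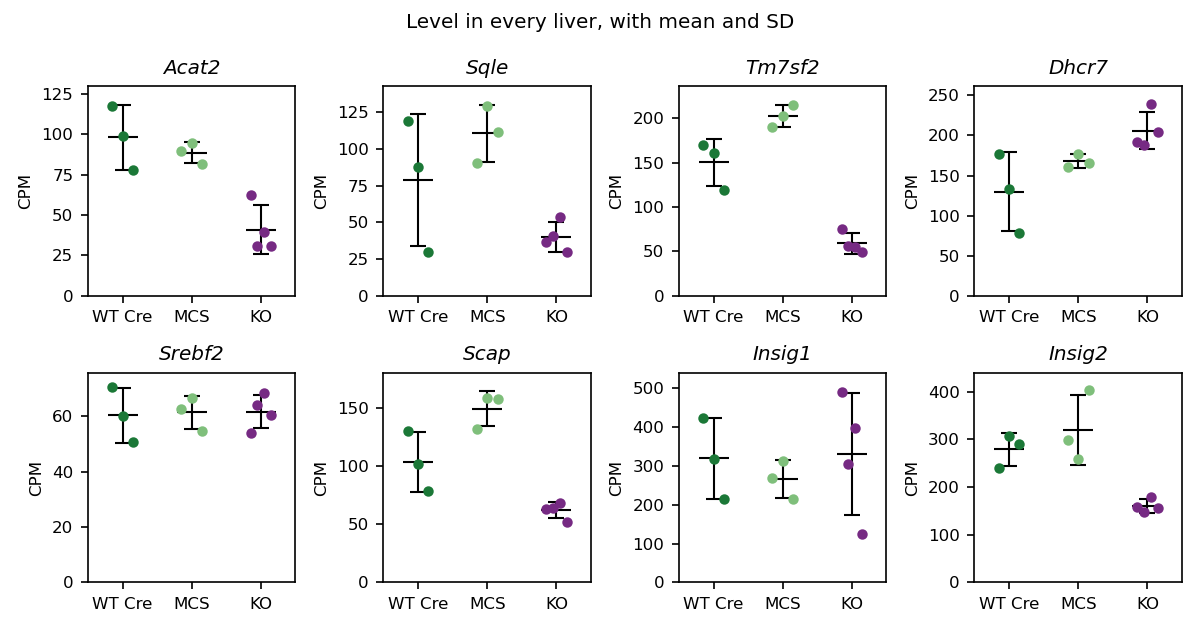
CPM of 8 genes in every liver (points), with the group mean and SD (black bars; n = 3 WT Cre, 3 MCS and 4 KO); each vertical axis starts at 0. KO livers are below all controls for Acat2, Tm7sf2, Scap and Insig2, above them for Dhcr7, and overlap them for Sqle, Srebf2 and Insig1.

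The genes that control SREBP2 fell in 2 of 6. Srebf2 itself measured 70.5, 59.9 and 50.6 CPM in WT Cre, 62.5, 66.8 and 54.8 CPM in MCS and 54.0, 64.1, 68.3 and 60.4 CPM in KO livers. The groups overlapped throughout, and the log2 fold change was 0.02 (SE 0.11, adjusted p = 0.903). On log2(FPKM + 1) Srebf2 passed as higher, with a difference of 0.49 and an adjusted p of 0.0130. Scap, the escort of SREBP2, on chr9:110333288-110384950, measured 129.6, 102 and 78.1 CPM in WT Cre, 132, 158 and 158 CPM in MCS and 63.0, 64.0, 68.3 and 52.3 CPM in KO livers. All KO livers were below all controls and close to each other, and the log2 fold change was -1.03 (SE 0.18, adjusted p = 0.000884). The ratio of Scap to Srebf2 CPM was 2.07 ± 0.49 in controls (SD, n = 6) and 1.01 ± 0.12 in KO livers (SD, n = 4), and its ranges, 1.55 to 2.88 and 0.87 to 1.17, did not overlap. Scap alone already separated KO livers from all controls, so the ratio is not a separate result. The ratio also separated the kinds of control, at 1.545 to 1.837 in WT Cre and 2.105 to 2.875 in MCS livers.

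The Insig genes, which retain Scap when sterols are abundant, were called differently. Insig2, on chr1:121304353-121332589, measured 239.9, 306 and 291 CPM in WT Cre, 298, 259.6 and 402 CPM in MCS and 158, 147, 179.8 and 156 CPM in KO livers. Every KO liver was below every control, and the log2 fold change was -0.90 (SE 0.14, adjusted p = 0.00033). Insig1, which is itself a target of SREBP2 and carries an NF-Y box, an E-box and the shorter sterol regulatory element letters in its promoter, measured 423, 318 and 216 CPM in WT Cre, 267, 313 and 215 CPM in MCS and 491, 306, 398 and 125 CPM in KO livers. KO 1 held the highest level of all livers and KO 4 the lowest. Its log2 fold change of 0.18 (SE 0.33, adjusted p = 0.72) did not pass and became -0.08 without KO 1. The ratio of Insig1 to Insig2 CPM was 1.03 ± 0.43 in controls (SD, n = 6) and 2.05 ± 0.95 in KO livers (SD, n = 4), with ranges of 0.54 to 1.76 and 0.80 to 3.11 that overlapped.

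The SREBP proteases did not pass the test. Mbtps1, which makes the first cut, ranged from 55.7 to 66.4 CPM in controls and from 54.8 to 59.3 CPM in KO livers. Mbtps2, which makes the second cut, ranged from 7.94 to 9.72 CPM in controls and from 6.92 to 8.68 CPM in KO livers. The log2 fold changes were -0.15 (SE 0.08, adjusted p = 0.173) for Mbtps1 and -0.12 (SE 0.11, adjusted p = 0.433) for Mbtps2. Stard4, a carrier that moves sterols between membranes, measured 119, 96.7 and 86.1 CPM in WT Cre, 112, 136 and 113 CPM in MCS and 75.8, 75.9, 85.0 and 59.6 CPM in KO livers. The highest KO liver was narrowly below the lowest control, and the log2 fold change was -0.57 (SE 0.14, adjusted p = 0.00522). Against WT Cre alone it was -0.44 (SE 0.14, adjusted p = 0.0388), a call lost without WT Cre 1, WT Cre 2, MCS 1, KO 2 or KO 4 (adjusted p from 0.0511 to 0.188). The call was also lost with library size in place of TMM (0.107) and on log2(FPKM + 1) (0.141).

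Levels per kilobase of annotated exon, the scale on which genes can be compared, placed Sc5d (151 CPM per kb), Ebp (126.5), Insig1 (94.4), Insig2 (86.2) and Hmgcs1 (80.7) highest in controls. Mbtps2 (0.85) and Ggps1 (2.30) were lowest. In KO livers Sc5d (112), Insig1 (107) and Ebp (97.4) were the highest, and Insig2 (46.1) lay below Hmgcs1 (50.2).

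The summed level of the 19 enzymes was 3585, 3077 and 2064 CPM in WT Cre, 2920, 3307 and 2805 CPM in MCS and 2554, 1876, 2228 and 1626 CPM in KO livers. KO 1 and KO 3 were above WT Cre 3, so the groups overlapped. WT Cre 3 had the lowest level of its group in 18 of 19 enzymes and the lowest of all 6 controls in 15 of 19. In the KO group, KO 4 was lowest in 12 of 19 enzymes and KO 1 was highest in 12 of 19. In the MCS group the lowest level was split between MCS 3 (10 of 19) and MCS 1 (8 of 19), while MCS 2 was highest in 15 of 19. The median coefficient of variation over the 19 enzymes was 28.3% in WT Cre, 9.27% in MCS and 23.3% in KO livers. The cell type markers of these livers followed the enzyme sum in some livers and not in others. The hepatocyte marker sum used here was mostly Alb. KO 1 had the highest hepatocyte marker sum of the KO livers (97890 CPM) and the lowest Kupffer cell and macrophage sum (585 CPM), and KO 4 had the lowest (82870 CPM) and the highest (1249 CPM), respectively. KO 1 was also the shallowest library, at 14998426 counts. WT Cre 3 had the lowest hepatocyte marker sum of the controls (107900 CPM). By contrast, MCS 3 had the highest hepatocyte marker sum of all livers (152500 CPM) and the lowest enzyme sum of its group, and KO 3 had a lower hepatocyte marker sum than KO 2 (87100 against 94300 CPM) and a higher enzyme sum. Their part in the enzyme levels was not tested. Leaving out WT Cre 3 gave 13 lower and 1 higher of the 26 genes, leaving out KO 1 gave 13 lower and 0 higher, and leaving out KO 4 gave 10 lower and 0 higher.

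**Figure D4:**
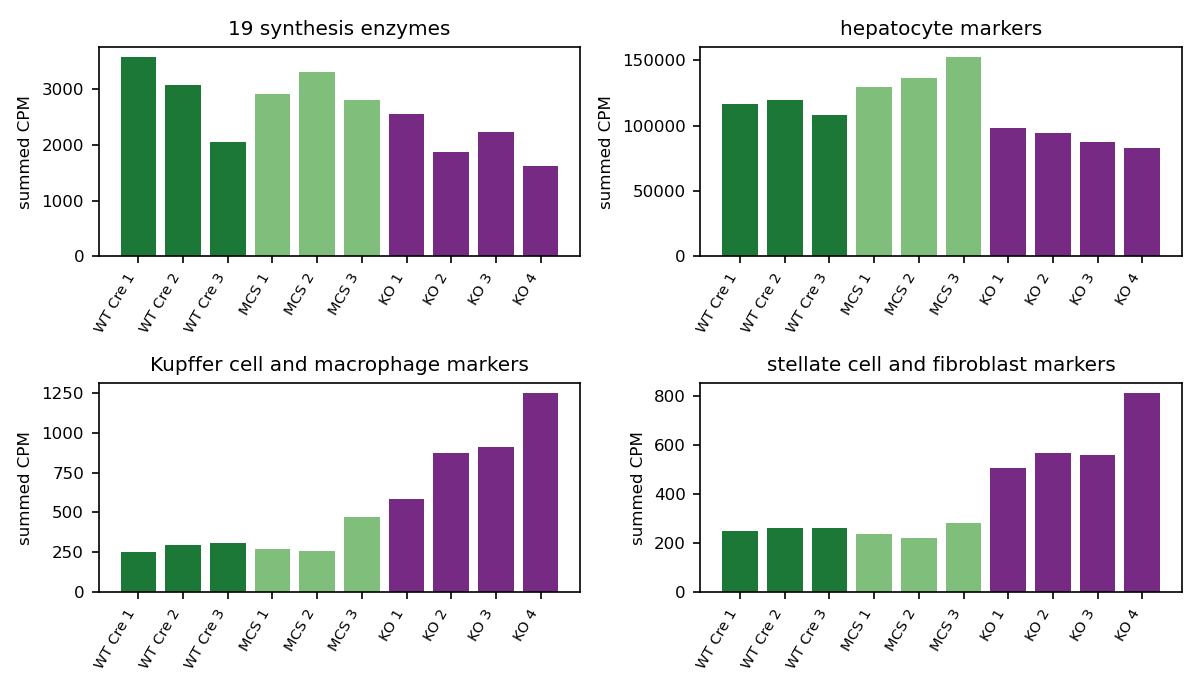
Summed CPM in each liver of the 19 synthesis enzymes and of 10 marker genes each for hepatocytes, for Kupffer cells and macrophages, and for stellate cells and fibroblasts; bars start at 0 and each bar is 1 mouse. The enzyme sum is lowest in KO 4 at 1626 CPM, where the macrophage marker sum is highest at 1249 CPM. The hepatocyte marker sum is mostly Alb.

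Genes of neighbouring pathways were counted in the same way. Over all genes 19.7% were higher and 16.6% lower, and no test set the counts of these lists apart from those shares. Of 14 tested genes of the isoprenoid branches, which use farnesyl and geranylgeranyl groups for prenylation, ubiquinone and dolichol, 2 were higher and 3 lower, with a median log2 fold change of -0.06. Zmpste24, a protease that trims prenylated proteins, rose, with a mean of 76.0 ± 9.26 CPM (SD) in the 6 controls and 162 ± 22.4 CPM in the 4 KO livers (adjusted p = 2.38e-05). The prenylation and ubiquinone genes Pdss2, Rabggtb and Fnta fell, with log2 fold changes of -0.50, -0.39 and -0.38, and Rabggtb did not pass against WT Cre (adjusted p = 0.0916). Of 22 genes of sterol-regulated degradation in the endoplasmic reticulum and of SREBP transport, 2 were higher and 3 lower, with a median of -0.05. Rnf145, a ubiquitin ligase that acts on Scap, was higher, from 18.0 to 28.7 CPM in controls to 36.6 to 58.3 CPM in KO livers (log2 fold change 1.11, SE 0.15, adjusted p = 0.000123). Tmem97, a sterol-binding membrane protein, also rose (log2 fold change 0.41), and the ligase Syvn1 and the VCP cofactor Ufd1 fell (log2 fold changes -0.54 and -0.36), although Syvn1 did not pass against WT Cre (adjusted p = 0.124).

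In the group of sterol esterification, trafficking and LXR genes, 8 of 24 were higher and 6 lower, with a median of 0.09. Soat1, which esterifies cholesterol in many cell types, was higher, at 4.13 ± 0.67 CPM (mean ± SD) in controls and 12.9 ± 4.01 CPM in KO livers. The sterol transporters Abcg1 and Gramd1b rose, with log2 fold changes of 1.48 and 1.55. Ch25h, which makes an oxysterol, was at 0 to 0.119 CPM in controls and at 0.459 to 0.870 CPM in KO livers (adjusted p = 0.000166). These transcripts were of low abundance. They rose in livers where the summed macrophage, stellate cell and cycling markers also rose, as did the lymphoid sum except in KO 1. The part of those cells was not tested. The other higher genes were Mylip, Gramd1a, Npc2 and Abca1, with log2 fold changes of 0.51, 0.48, 0.44 and 0.43. Npc2 (70.0 CPM in controls, 94.7 CPM in KO livers) and Abca1 (120 and 161 CPM) were more abundant. Against MCS Mylip (adjusted p = 0.216), Gramd1a (0.0887) and Abca1 (0.238) did not pass. The 6 lower genes also included abundant transcripts. Scp2, which encodes a sterol carrier protein, had a mean of 3581 ± 232 CPM (SD) in controls and 2402 ± 345 CPM in KO livers (log2 fold change -0.58), and Cyp27a1, the sterol 27-hydroxylase, fell by 0.73 on the log2 scale. The others were Stard5 (-0.84), the paired sterol exporters Abcg5 (-0.78) and Abcg8 (-0.71), and Gramd1c (-0.33). Of these, Abcg5 (adjusted p = 0.0504) and Abcg8 (0.170) did not pass against WT Cre, nor Stard5 against MCS (0.0502). The summed level of the 24 genes was 5426 to 6066 CPM in controls and 4051 to 4631 CPM in KO livers. Scp2 alone made up most of this sum and of its fall, so the sum does not describe the list as a whole. In the SREBP1 and fatty acid synthesis group, 1 of 13 was higher and 3 lower, with a median of -0.13. Me1, which supplies reducing power, the carboxylase Acacb and the desaturase Scd1 fell, with log2 fold changes of -1.37, -1.17 and -0.74. Against MCS alone Me1 (adjusted p = 0.142) and Scd1 (0.0937) did not pass. Acaca, the first enzyme of fatty acid synthesis, rose, with a log2 fold change of 0.72 (adjusted p = 0.00133).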

How the data were processed

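Poly(A) RNA of 10 livers was sequenced from directional libraries. The authors deposited whole-number counts per gene, and FPKM values scaled by gene length and depth. The study's methods name STAR and HOMER for alignment and counting, while the submitters' processing notes list STAR, HTSeq, Cufflinks and mm10, so the counter is unsettled and its strand setting is not given in the sources used here. Total counts ranged from 14998426 to 26096141 per liver, which limits precision for low genes, and libraries of a group differed by more than sampling noise. Control columns were matched to mice by the number in the library name. The comparison over all 6 controls does not depend on this match, those with WT Cre and with MCS do. The labels give the genotype of floxed mice as HIRA fl/fl while titles name H3f3a and H3f3b, and titles were followed. Each library is taken as 1 mouse, and if that were wrong p-values would measure technical spread.

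Counts were tested with edgeR 4.0.16 in R 4.3.3 (TMM scaling, glmQLFit with robust estimation, glmQLFTest, two-sided) on genes with at least 10 summed counts, with Benjamini-Hochberg adjustment over 22449 genes. KO was compared with 6 controls in a fit of 2 groups, and with each kind of control in a fit of 3 groups. A call is an adjusted p under 0.05. SE is the absolute log2 fold change over the square root of F. The test was checked on simulated data. Alternatives were DESeq2 1.42.0, other scalings and filters, limma 3.58.1 with voom or on log2(FPKM + 1) and log2(FPKM + 0.1), a replicate block, and leaving out each liver. FPKM fold changes are on that log2 scale and understate those of low genes, and Mvd has no FPKM value in the table. The members and the gene lists were chosen with earlier results of these data known. All 26 members are named. From the other lists the up to 4 genes with the largest absolute log2 fold change among those that passed are described. The other higher and the 6 lower sterol trafficking genes were added after their values were seen. Cell type markers are given as list counts, with Alb, Apob and Cps1 named after their values were seen. Promoters for Fdft1, Fdps, Sqle and Stard4 are not shown here. The table held 0 count columns without a sample.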

Additional observations from a re-analysis of the deposited data

Results flagged for a closer look

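Ebp in KO 1 stood apart from the other KO livers, at 268 CPM against 207 to 216 CPM, with a gap to the nearest liver that exceeded the 95% critical value of Dixon's test for a group of 4. This was 1 of 52 groups tested, and chance flags about 1 in 20. WT Cre and MCS groups alone were too small for this test. No other result was flagged.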

How the results depend on the processing

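Acat2, Idi1, Cyp51, Tm7sf2, Nsdhl, Hsd17b7, Scap, Insig2 and Stard4 stayed lower and passed over all 6 controls under each of the 19 alternatives. Over all 6 controls the members called numbered 13, with 10 to 14 when 1 liver was left out and 9 to 13 otherwise. Against WT Cre they numbered 12 (8 to 12 and 8 to 13), against MCS 12 (10 to 12 and 10 to 12), and 0 throughout between the controls. Without WT Cre 1, 7 members were lower against WT Cre in place of 11. Genes near no difference changed sign without passing. Mvk rose above 0 under DESeq2 (0.0151), its size factors (0.0147), library size (0.17), filterByExpr (0.0085), log2(FPKM + 1) (0.14), log2(FPKM + 0.1) (0.16) and the replicate block (0.17), and lay between -0.10 and 0.13 when 1 liver was left out. Under library size, log2(FPKM + 1) and log2(FPKM + 0.1), respectively, Fdft1 became 0.0346, 0.0989 and 0.102, Mbtps1 0.0305, 0.0620 and 0.0668, and Mbtps2 0.0522, 0.1002 and 0.157. Fdft1 was 0.0360 under the replicate block. When 1 liver was left out, Fdft1 ran from -0.27 to 0.0093 (above 0 without KO 4), Srebf2 from -0.0202 to 0.0794 (below 0 without WT Cre 3, MCS 3 or KO 3) and Insig1 from -0.0809 to 0.45 (below 0 without KO 1). The cause was not tested. Of the other 464 values over all 6 controls, 422 kept their side of the threshold, 33 lost the call and 9 gained it.

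Replicate numbers are shared between groups, but correlations of same-numbered livers ran from -0.0387 to 0.111, so the numbers were not taken to pair mice. With a replicate block, which leaves KO 4 alone in its block, 9 members were called over all 6 controls, 8 against WT Cre and 11 against MCS. Fdps (adjusted p = 0.0614), Sqle (0.158), Ebp (0.129) and Sc5d (0.136) lost their call over all controls. Mvd, not called, moved from -0.43 to -0.10.

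Counts over all genes moved by more than 1.5 times for genes lower in KO with library size (2172, against MCS 1697) and log2(FPKM + 1) (2059 and 1488) or log2(FPKM + 0.1) (2111 and 1528), for genes lower than in WT Cre without WT Cre 2 (1949) or WT Cre 3 (1955) in place of 2939, and between WT Cre and MCS with DESeq2 (309 higher and 334 lower in place of 99 and 109; 38 to 250 and 29 to 267 when 1 liver was left out; 165 to 208 higher with library size, no filter or the replicate block; 62 to 67 lower on FPKM and 178 lower with the block). Mbtps2, with 112 to 224 counts per liver, and Ggps1, with 164 to 350, rested on the fewest counts of the 26 genes. The composition of the liver moved with the groups, and 3 or 4 mice a group leave calls near the threshold open to a single liver.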
